A study of Mus musculus with 6 samples.

Results

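The RNAs described here are 89 long intergenic noncoding RNAs (lincRNAs) of mouse liver. They are the genes annotated with the biotype lincRNA, a class of long transcripts without a known protein, that had at least 100 raw reads in at least 3 of the 6 sequenced pools. They were selected on these measured counts, and SE below stands for standard error. The 89 genes were 3.52% of the 2527 lincRNA genes in the table of all pools and came from 41388 genes counted in each pool. Among the 2527 lincRNA genes, 1357 had 0 reads in every pool.

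Liver RNA was sequenced as 3 control pools and 3 *Mttp-IKO* pools, each made from 3 to 4 C57BL/6 mice, after the mice had eaten a methionine- and choline-deficient (MCD) diet for 3 weeks, which in mice leads to fatty and fibrotic liver. In the *Mttp-IKO* mice, tamoxifen had activated a Cre recombinase driven by the intestinal Villin promoter, which deletes the floxed *Mttp* gene needed for chylomicron assembly in intestinal epithelium and not in liver. The methods describe the controls as vehicle-treated littermates with the same floxed *Mttp* alleles and the same Cre, whereas the labels call them wild type. The comparison asks how the liver responds to MCD feeding when fat absorption is blocked. Mice were 12 to 16 weeks old, received tamoxifen or vehicle for 5 days, began the diet 3 weeks later and were fasted for 4 to 6 h before tissue was taken. The figure legends of the study describe these mice as male. A replicate was a pool, so the p-values measure the spread between pools, and fewer cells of a type cannot be told apart from less RNA per cell in such bulk RNA.

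A lincRNA is transcribed and usually spliced like an mRNA but is not thought to be translated. Some act in the nucleus, as Malat1 and Neat1 do in nuclear bodies, some act at the locus they come from, and others are host transcripts whose introns or exons are processed into small nucleolar RNAs (snoRNAs) or microRNAs. Many are measured only as names and have no assigned role. In liver, H19 is known as an imprinted RNA that is abundant before birth and falls silent afterwards.

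Of the 89 genes, 38 carried Gm symbols, 29 carried Rik symbols and 22 had other names. All 89 were also lincRNA in GENCODE M21 of the same genome build (GRCm38), although 1 of them, Gm15835, lay on the other strand there. RefSeq matched 60 of them, 53 as lncRNA, 4 as protein-coding genes and 3 as pseudogenes. The protein-coding matches were 1810058I24Rik, Tmem250-ps, D930016D06Rik and Gm38399. The deposited biotype was kept for the choice of genes.

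Of the 89 lincRNAs, 5 contain microRNA genes, and the mature microRNAs are shown because H19 and Meg3, on which results below turn, are among these hosts. H19 holds Mir675 and Meg3 holds Mir770 and Mir1906-1. Ftx, E130102H24Rik and 6720427I07Rik hold Mir421 with Mir374b, Mir101a and Mirlet7d. The mature sequences are from RefSeq (GRCm38.p6), run 5′ to 3′, and have the seed, bases 2 to 8, in capitals.
mmu-miR-675-5p: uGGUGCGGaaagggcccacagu
mmu-miR-675-3p: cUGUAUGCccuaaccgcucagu
mmu-miR-770-5p: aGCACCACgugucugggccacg
mmu-miR-770-3p: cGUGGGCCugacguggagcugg
mmu-miR-1906: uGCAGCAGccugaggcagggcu
mmu-miR-421-5p: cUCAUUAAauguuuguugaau
mmu-miR-374b-5p: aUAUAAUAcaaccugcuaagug
mmu-miR-374b-3p: gGUUGUAUuaucauuguccgag
mmu-miR-101a-5p: uCAGUUAUcacagugcugaugc
mmu-miR-101a-3p: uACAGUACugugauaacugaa
mmu-let-7d-5p: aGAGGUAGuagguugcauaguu
mmu-let-7d-3p: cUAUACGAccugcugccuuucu

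The 12 mature sequences had 12 different seeds, so none of the 5 hosts shared a seed with another. The miR-675 arms lie within H19 at chr7:142577078-142577099 and chr7:142577112-142577133 on the minus strand. The Mir675, Mir770, Mir1906-1, Mir101a and Mirlet7d genes had 0 reads in all 6 pools, and Mir421 and Mir374b had at most 7 reads in any pool. By counting error alone, 0 allows up to 3 reads in each pool. Reads that also fit a host exon were not counted, so a 0 sets no limit on what was present. Only reads that fit a single gene were counted, so the levels given for a host are those of its own transcript and say nothing of the mature microRNA.

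The region before the start site, the start window, is shown for 4 lincRNAs, 1810058I24Rik, 6030443J06Rik, 9030616G12Rik and AW112010. They had the smallest adjusted p-values among the lincRNAs for which a start window was found. H19, which RefSeq lists as a lncRNA, had a smaller adjusted p (0.0181, edgeR). It is left out because no start window was found for it. Each window holds the 250 bases before the RefSeq start on GRCm38.p6, 5′ to 3′ on the strand of the gene. Capitals mark matches, on either strand, to TATAAA (the TATA box), to GGGCGG (the GC box) or to TTCNNNGAA (the STAT factor motif), where N is any base.
1810058I24Rik (chr6:35252460-35252709, plus strand): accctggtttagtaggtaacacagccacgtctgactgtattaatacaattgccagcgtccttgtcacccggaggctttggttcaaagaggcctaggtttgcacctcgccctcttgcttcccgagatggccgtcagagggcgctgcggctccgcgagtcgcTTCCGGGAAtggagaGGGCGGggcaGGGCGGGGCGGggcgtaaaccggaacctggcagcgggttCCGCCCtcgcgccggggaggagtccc
6030443J06Rik (chr5:22550163-22550412, plus strand): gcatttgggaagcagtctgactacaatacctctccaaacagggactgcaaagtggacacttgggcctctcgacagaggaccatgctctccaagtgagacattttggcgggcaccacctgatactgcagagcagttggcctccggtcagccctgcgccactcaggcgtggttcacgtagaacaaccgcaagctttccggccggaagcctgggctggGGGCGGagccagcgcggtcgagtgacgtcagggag
9030616G12Rik (chr10:128970947-128971196, plus strand): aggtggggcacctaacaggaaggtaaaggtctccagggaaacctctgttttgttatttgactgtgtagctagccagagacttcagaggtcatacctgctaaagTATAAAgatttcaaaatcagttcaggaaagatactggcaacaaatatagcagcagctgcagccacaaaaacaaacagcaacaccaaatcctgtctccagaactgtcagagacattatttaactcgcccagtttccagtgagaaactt
AW112010 (chr19:11050567-11050816, minus strand): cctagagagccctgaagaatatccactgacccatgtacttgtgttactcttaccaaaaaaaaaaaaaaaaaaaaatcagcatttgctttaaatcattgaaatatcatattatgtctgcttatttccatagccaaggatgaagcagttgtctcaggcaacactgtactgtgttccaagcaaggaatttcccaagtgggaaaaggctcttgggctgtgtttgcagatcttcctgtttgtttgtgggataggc

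The 1810058I24Rik window held 22 CG dinucleotides, 4 GGGCGG matches, of which 2 overlap, and 1 TTCNNNGAA match. The 6030443J06Rik window held 14 CG and 1 GGGCGG match. The 9030616G12Rik window held 1 CG and 1 TATAAA match, and the AW112010 window held 0 CG and none of these letters. A start window was found for 43 of the 89 lincRNAs, with a median of 10 CG and a range of 0 to 43, against a median of 6 CG over 32851 windows of all genes. TATAAA was in 4 of the 43 (9.30%) and in 12.4% of all windows, GGGCGG in 17 (39.5%) and 32.7%, and TTCNNNGAA in 2 (4.65%) and 7.02%.

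Levels are given as CPM, the reads on a gene relative to all reads of a pool after TMM scaling in edgeR, and as RPKM, the same value per kilobase of exon, where genes are compared with each other. The pools held 25271585 to 36238734 reads on genes. The choice of genes used these counts, so their height is a description and was not tested. The median of the 89 mean levels was 6.02 CPM, 61 genes lay under 10 CPM and 4 reached 100 CPM. Per length, the median was 3.14 RPKM, and 12 lincRNAs lay under 1 RPKM. The 14198 protein-coding genes tested had a median of 3.98 RPKM, but they had passed only the lower count filter of the test. Under that same filter, the median was 1.16 CPM for the 356 lincRNA genes tested and 15.3 CPM for the coding genes. The total exon length per gene was shorter in the 89 lincRNAs (median 2483 nt) than in coding genes (3728 nt). It was also split into fewer blocks (median 3 against 9).

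The 89 lincRNAs took 4.26 to 5.42% of the reads of control pools and 4.78 to 6.35% of those of *Mttp-IKO* pools, and most of this came from 1 locus. Gm26917 and Gm42418, which lie side by side on chromosome 17, took 3.55 to 4.63% of control reads and 4.30 to 5.75% of *Mttp-IKO* reads. Malat1 took a further 0.486 to 0.610% of control reads and 0.350 to 0.439% of *Mttp-IKO* reads. The other 86 lincRNAs together held 0.125 to 0.182% of the reads of a pool.

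**Figure D1:**
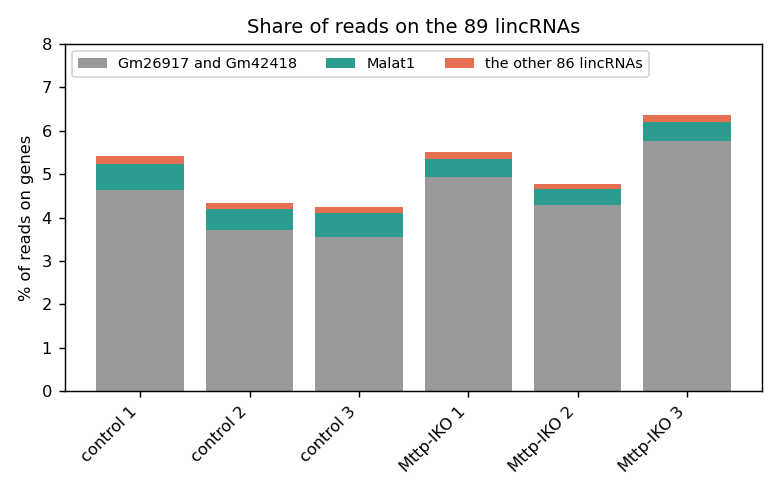
The bars show the percent of each pool's reads on genes that fell on Gm26917 and Gm42418, on Malat1 and on the other 86 lincRNAs. The pair on chromosome 17 makes up most of every bar, and the total runs from 4.26% in control pool 3 to 6.35% in *Mttp-IKO* pool 3.

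Gm42418 (ENSMUSG00000098178, chr17:39846958-39848788) overlaps the RefSeq pseudogene Rn18s-rs5, a copy related to 18S ribosomal RNA, by 1245 nt. Its level was 52.5, 259 and 129 CPM across controls and 27.9, 303 and 872 CPM across *Mttp-IKO* pools. The genotypes overlapped widely (edgeR log2 fold change 1.45 with an SE of 1.0, adjusted p = 0.425), and without *Mttp-IKO* pool 3 the value was 0.17. Gm26917 (ENSMUSG00000097971, chr17:39845074-39846245) was the highest of the 89 per length, with 51651 RPKM on average. Gm26917 had been listed as an RNA that overlaps ribosomal RNA, but it ends before Rn18s-rs5 starts. Whether its reads come from ribosomal RNA was not tested. It measured 41552, 36048 and 33466 CPM across controls and 50491, 47617 and 60135 CPM across *Mttp-IKO* pools. Every *Mttp-IKO* pool lay above every control pool, but the difference did not pass the test (edgeR log2 fold change 0.51 with an SE of 0.274, adjusted p = 0.306). The libraries had been depleted of ribosomal RNA, and whether residual ribosomal RNA moved with these values was not tested.

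After Gm26917, the highest levels per length were 678 RPKM for Malat1, 160 RPKM for Gm10076, 150 RPKM for Gm42418, 36.6 RPKM for AW112010 and 31.0 RPKM for Neat1. Gm10076 is a 384 nt gene that RefSeq lists as a pseudogene, and reads that also fit a near-identical copy would not have been counted. By CPM, without correction for length, Gm26917, Malat1, Neat1, Gm42418 and 1700020I14Rik led. At the other end, 4632404H12Rik and A530017D24Rik were just inside the count limit, each with 101 reads in the third highest pool. Gm15889 and A530013C23Rik, with 98 and 97 reads in the third highest pool, were just outside.

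Between genotypes, 3 of the 89 lincRNAs changed at an adjusted p under 0.05 (edgeR's quasi-likelihood test, adjusted by Benjamini-Hochberg over 17287 genes). H19 and 1810058I24Rik fell in *Mttp-IKO* pools and 6030443J06Rik rose. The share of 3.37% compares with 4.01% of all genes tested, where 0.920% were higher and 3.09% lower, and with 1.69% of the 356 lincRNA genes tested. At an unadjusted p under 0.05, 30 of the 89 (33.7%) passed, against 23.0% of all genes. Pools of the genotypes did not overlap for 26 lincRNAs that were higher and 12 that were lower (42.7% together), against 14.5% higher and 16.5% lower, 31.0% together, of all genes. Both counts include 6030443J06Rik, 1500035N22Rik, 9030616G12Rik, AU020206 and Dubr, which reached 100 reads in the pools of 1 genotype only. The choice of genes favoured a difference in these, so both shares are descriptions and no evidence of an excess. With 3 pools a side, the smallest two-sided p that exact permutation allows is 0.1, so no such test was made for single genes.

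The calls rest on few pools. Without control pool 1 or 3, or without *Mttp-IKO* pool 1 or 2, edgeR called 0 of the 89, with 18, 19, 31 and 24 of them at an unadjusted p under 0.05. Over all genes these fits called 24, 21, 55 and 0. Without control pool 2 it called H19 and 1810058I24Rik, with 892 calls over all genes, and without *Mttp-IKO* pool 3 it called 9, the same 3 among them, with 864 over all genes.

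More of the 89 lincRNAs lay above 0 than below, 63 against 26, with a median log2 fold change of 0.25 beside 0.01 for all genes tested and -0.01 for protein-coding genes. The 50 lincRNAs that had 100 reads in all 6 pools, for which neither genotype decided the choice, were 41 higher and 9 lower with a median of 0.25, and 1 of them was called. The other 267 lincRNA genes that were tested had a median of 0.20, and 3 of them were called. Total count scaling, which moves the median of all genes to -0.17, gave 51 lincRNAs above 0 and 38 below, and their median lay 0.24 above that of all genes under both scalings. Without *Mttp-IKO* pool 3 the lincRNA median was 0.19, with 56 above 0 and 33 below. That pool held the highest level of 36 of the 89.

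**Figure D2:**
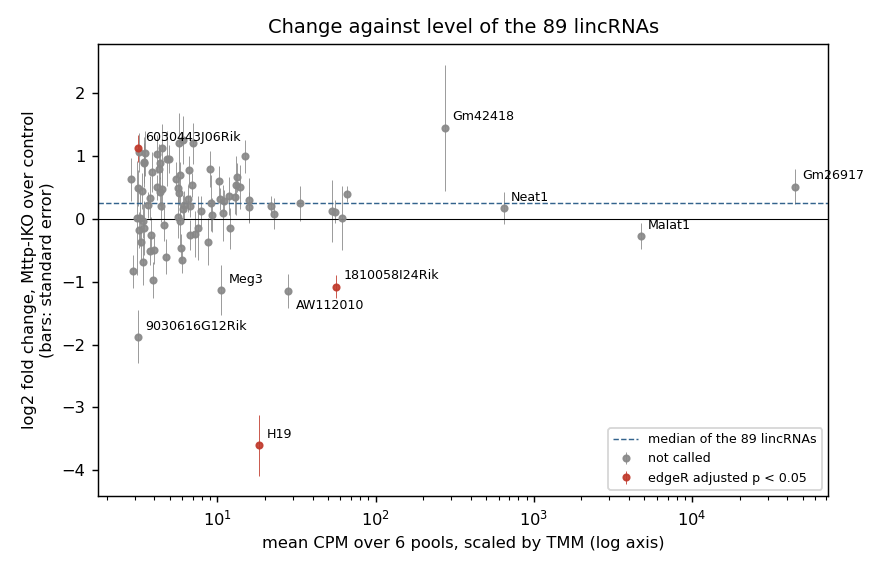
Each point is 1 of the 89 lincRNAs, with its mean CPM over 6 pools on a log axis and its log2 fold change of *Mttp-IKO* over control with the standard error. The points called by edgeR (adjusted p under 0.05) are H19, 1810058I24Rik and 6030443J06Rik, and the dashed line is the median of 0.25.

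H19 (ENSMUSG00000000031, chr7:142575529-142578143, minus strand) is the imprinted, maternally expressed RNA that holds miR-675. It was at 49.8, 25.7 and 26.6 CPM across controls and 3.97, 1.10 and 3.36 CPM across *Mttp-IKO* pools. Every control pool lay far above every *Mttp-IKO* pool. The means were 34.0 ± 13.7 and 2.81 ± 1.51 CPM (SD, n = 3 pools), a 12.1-fold lower level in *Mttp-IKO* liver (edgeR log2 fold change -3.60 with an SE of 0.482, adjusted p = 0.0181). It was the largest fall of the 89, and per length H19 went from 14.3 to 1.18 RPKM. The fold change was -3.95 to -3.21 when each pool was left out, and the adjusted p reached 0.0914 without *Mttp-IKO* pool 2.

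Meg3 (ENSMUSG00000021268, chr12:109541001-109571726, plus strand), the maternally expressed RNA of the imprinted Dlk1-Dio3 region, was at 12.5, 18.1 and 12.9 CPM in control pools. In *Mttp-IKO* pools it was at 3.67, 5.08 and 11.2 CPM. The pools did not overlap, but pool 3 lay close to the controls and the difference did not pass the test (edgeR log2 fold change -1.13 with an SE of 0.394, adjusted p = 0.143). Without *Mttp-IKO* pool 3 it was called at -1.73 (adjusted p = 0.0221, edgeR). Rian, which lies downstream of Meg3 on the same strand and is annotated as a processed transcript rather than a lincRNA, fell from 4.86 ± 0.847 to 1.84 ± 0.562 CPM (SD, n = 3 pools; edgeR log2 fold change -1.40 with an SE of 0.299, adjusted p = 0.0451). Of 10 imprinted noncoding RNAs listed, 7 were tested, 2 of them fell (H19 and Rian) and 0 rose by edgeR, beside 3.09% lower and 0.920% higher of all genes. Mirg, which lies further downstream of Meg3 and Rian on the same strand, went the other way, with an edgeR log2 fold change of 0.88. It was at 0.967, 0.998 and 0.500 CPM across controls and 1.68, 1.27 and 1.64 CPM across *Mttp-IKO* pools, without overlap at these low levels. The log2 fold changes were 0.85 for Snhg14, 0.47 for Kcnq1ot1 and -0.28 for Airn. Adjusted p-values by edgeR were over 0.05 for Mirg and each of these.

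Marker RNAs of stellate cells and recruited macrophages were lower in the *Mttp-IKO* pools, and those of endothelial and Kupffer cells overlapped. The summed level of 9 stellate cell markers was 930 to 1719 CPM in control pools and 478 to 527 CPM in *Mttp-IKO* pools, with 6 of 9 called lower. That of 6 recruited macrophage markers was 404 to 1084 and 163 to 214 CPM, with 4 of 6 called lower. The sum of 10 hepatocyte markers was 68679 to 105879 and 134462 to 181077 CPM, with 0 called. Most of this sum was Alb, at 40131 to 69005 and 84785 to 132236 CPM. Of the 10, only Ttr had a value below 0, at 2808 to 3828 and 1466 to 2740 CPM, and Pck1 was at a log2 fold change of 0.05. The sum of 6 endothelial markers was 365 to 415 CPM in controls and 365 to 415 CPM in *Mttp-IKO* pools. None of these markers was at 0 in all pools. The sum of 6 Kupffer cell markers was 320 to 490 CPM in controls and 244 to 583 CPM in *Mttp-IKO* pools, with 1 called higher and 0 called lower. The part of these markers in the values of H19, Rian and the other lincRNAs was not tested.

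1810058I24Rik (ENSMUSG00000073155, chr6:35252654-35263496, plus strand) is a lincRNA in the deposited table but a protein-coding gene in RefSeq, where the name Stmp1, a small mitochondrial protein, is among its synonyms. It was at 72.2, 80.5 and 77.2 CPM across controls and 43.0, 37.1 and 28.8 CPM across *Mttp-IKO* pools. The genotypes were well apart and the control pools close together. The level was 2.11-fold lower in *Mttp-IKO* pools, 36.3 ± 7.14 against 76.6 ± 4.17 CPM (SD, n = 3 pools; edgeR log2 fold change -1.08 with an SE of 0.178, adjusted p = 0.0241). It was the only one of the 50 lincRNAs with 100 reads in all pools that was called, and without *Mttp-IKO* pool 2 its adjusted p was 0.118 by edgeR at a log2 fold change of -1.09.

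6030443J06Rik (ENSMUSG00000097207, chr5:22550437-22807850, plus strand) is an RNA without an assigned role that starts 8 nt from the coding gene Orc5 on the other strand. It was at 2.06, 1.94 and 1.94 CPM across controls and 4.22, 4.25 and 4.45 CPM across *Mttp-IKO* pools. The spread within each genotype was small beside the gap (edgeR log2 fold change 1.12 with an SE of 0.217, adjusted p = 0.0358). Its raw counts were 83, 70 and 62 in control pools and 131, 124 and 106 in *Mttp-IKO* pools, so it entered the 89 only through the *Mttp-IKO* pools and had to differ. Without control pool 3 its adjusted p was 0.163 by edgeR at a log2 fold change of 1.08. The call was also lost under total count scaling, where the log2 fold change was 0.94, and with a block for the pool number, where it was 1.12. Besides it, 1500035N22Rik reached 100 reads only in *Mttp-IKO* pools, and 7 lincRNAs did so only in control pools, namely 9030616G12Rik, AU020206, Dubr, Gm26744, Gm26835, Gm38399 and Snhg18.

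9030616G12Rik, AW112010 and Gm15675 came next, with adjusted p-values just above the threshold. 9030616G12Rik (chr10:128971197-128978115), whose role is not known, was at 5.70, 3.99 and 5.25 CPM across controls and 0.709, 1.10 and 2.31 CPM across *Mttp-IKO* pools (edgeR log2 fold change -1.88 with an SE of 0.424, adjusted p = 0.0522). AW112010 (chr19:11047617-11050566), an RNA induced by interferon and by bacterial products in immune cells, was at 42.0, 35.1 and 39.3 CPM across controls and 20.4, 21.6 and 10.4 CPM across *Mttp-IKO* pools (edgeR log2 fold change -1.15 with an SE of 0.267, adjusted p = 0.0563). For both, no *Mttp-IKO* pool reached a control pool. Without *Mttp-IKO* pool 3 both were called lower, at -2.46 (adjusted p = 0.0186) and -0.88 (adjusted p = 0.0216) by edgeR. 9030616G12Rik reached 100 reads only in control pools, so the choice of genes favoured a lower value for it. Gm15675, named after its values were seen (chr1:130429781-130437191) was at 3.74, 3.35 and 3.06 CPM across controls and 7.29, 5.18 and 7.13 CPM across *Mttp-IKO* pools, again without overlap (edgeR log2 fold change 0.95 with an SE of 0.224, adjusted p = 0.0589).

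**Figure D3:**
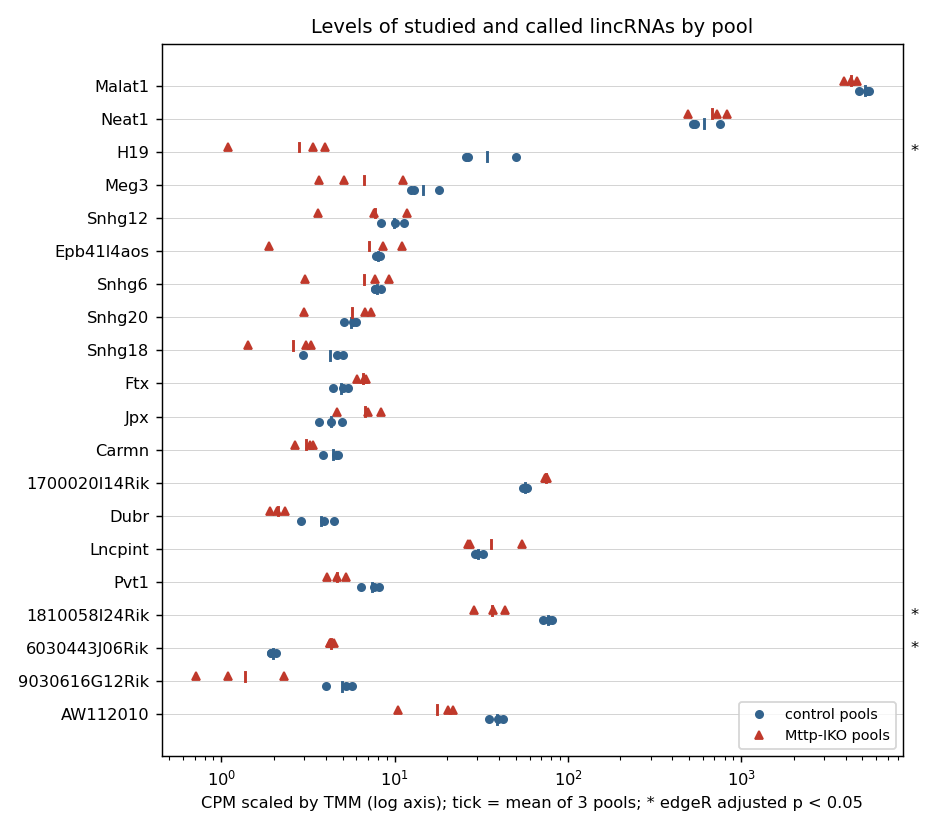
CPM by pool, on a log axis, of 16 studied lincRNAs and of 1810058I24Rik, 6030443J06Rik, 9030616G12Rik and AW112010, with control pools as circles, *Mttp-IKO* pools as triangles and the mean of 3 pools as a tick. H19 shows the widest gap, from 25.7 CPM in the lowest control pool to 3.97 CPM in the highest *Mttp-IKO* pool, while the pools of Neat1 overlap.

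Malat1 and Neat1 are neighbours on chromosome 19 and are the classical RNAs of nuclear bodies, Malat1 in nuclear speckles and Neat1 as the scaffold of paraspeckles. Malat1 (chr19:5795690-5802672) was at 5480, 4753 and 5332 CPM across controls and 4318, 3894 and 4650 CPM across *Mttp-IKO* pools. The lowest control pool lay above the highest *Mttp-IKO* pool, but by little, and the difference did not pass the test (edgeR log2 fold change -0.28 with an SE of 0.208, adjusted p = 0.467). Neat1 (chr19:5824708-5845478) was at 757, 526 and 537 CPM across controls and 829, 491 and 722 CPM across *Mttp-IKO* pools, which overlapped (edgeR log2 fold change 0.17 with an SE of 0.255, adjusted p = 0.736). Under total count scaling Neat1 lay at -0.01.

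SnoRNA host genes carry snoRNAs in their introns, and the spliced RNA that remains is often short-lived. Snhg12 was at 8.38, 11.3 and 10.1 CPM across controls and 11.8, 7.58 and 3.61 CPM across *Mttp-IKO* pools. Snhg6 was at 7.74, 7.65 and 8.34 CPM and at 9.25, 7.68 and 3.02 CPM. Epb41l4aos was at 8.18, 7.93 and 7.78 CPM and at 11.0, 8.57 and 1.89 CPM. In all 3 genes *Mttp-IKO* pool 1 lay above every control and pool 3 below all of them, while pool 2 lay below the controls in Snhg12, among them in Snhg6 and above them in Epb41l4aos. Snhg20 (5.95, 5.74 and 5.12 CPM against 6.74, 7.30 and 2.98 CPM) and Snhg18 (5.06, 2.94 and 4.65 CPM against 3.09, 3.29 and 1.43 CPM) were also lowest in that pool.

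None of these 5 genes, the members of the snoRNA host list, was called, with edgeR log2 fold changes of -0.69 (Snhg18) to 0.02 (Snhg20) and adjusted p-values of 0.303 to 0.977. Without *Mttp-IKO* pool 3, Snhg6 lay at 0.10, Epb41l4aos at 0.30 and Snhg20 at 0.33, while Snhg12 lay at -0.028 and Snhg18 at -0.40. Small RNA genes held 0.290% of that pool and 1.92 to 3.51% of each of the other 5 pools, and the part of this in the host levels was not tested. Of the 20 snoRNA hosts listed, 12 were tested whatever their biotype, 10 of these had a value below 0 and 0 were called, beside 50.5% of all genes above 0 and 4.01% called. Snhg5 and Snhg15 were among the 10 at -0.00045 and -0.0054. Rmrp, on the list but annotated as a ribozyme, was also among the 10, at -0.035. Snhg14, a snoRNA host by name, was on the imprinted list instead and so is not among the 12. It was at 0.85, with every *Mttp-IKO* pool above every control pool, and was not called. Snhg20 holds a scaRNA gene and no snoRNA gene in the annotation, whereas 9430037G07Rik, which is not on the list, holds the snoRNA gene Gm23017 and went the other way, with its highest level in *Mttp-IKO* pool 3.

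Lncpint, an RNA known to respond to p53, stood apart in that pool in the other direction. It was at 29.7, 29.2 and 32.2 CPM across controls and 27.2, 26.6 and 54.4 CPM across *Mttp-IKO* pools (edgeR log2 fold change 0.25 with an SE of 0.278, adjusted p = 0.633), and without *Mttp-IKO* pool 3 its value was -0.17. Gm13833, which lies within Lncpint on the other strand, was at 11.2, 11.0 and 10.1 CPM and at 9.28, 7.85 and 29.6 CPM. Gm26584, which overlaps Slc7a2 on the other strand, was at 52.0, 54.3 and 46.9 CPM and at 32.2, 24.9 and 110 CPM. Gm13833 and Gm26584 are named here after their values were seen. The sources do not say whether strand entered the counting. Without strand, reads that fit exons of both Lncpint and Gm13833 would be dropped, and other reads could be counted for the wrong gene. The levels of Lncpint and Gm13833 therefore cannot be fully told apart.

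**Figure D4:**
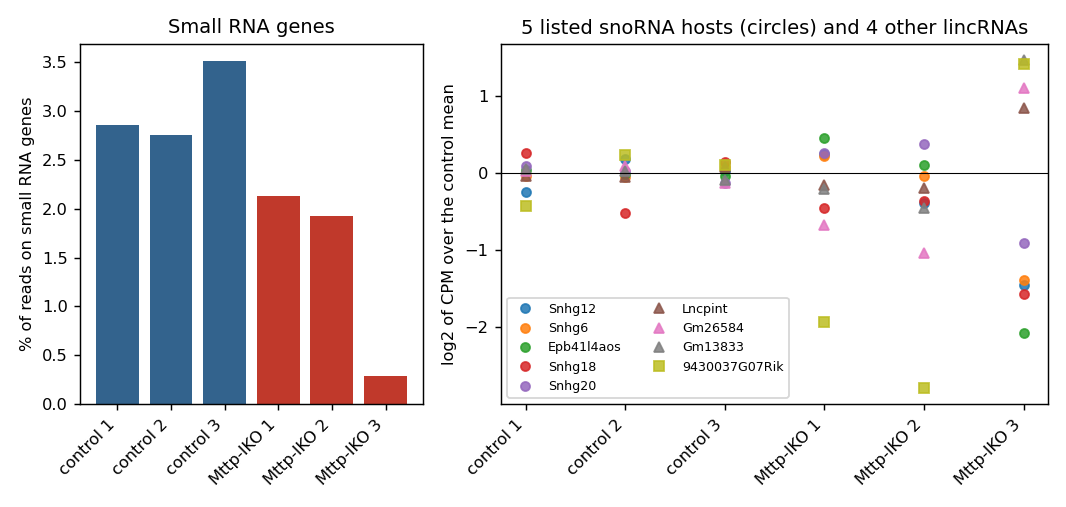
The bars show the percent of each pool's reads on small RNA genes, and the points show, for the 5 listed snoRNA hosts (circles), for 9430037G07Rik, which also holds a snoRNA gene (square), and for Lncpint, Gm26584 and Gm13833 (triangles), the log2 of each pool's CPM over the control mean. In *Mttp-IKO* pool 3, where small RNA genes held 0.290% of reads, each of the 5 listed hosts is at its lowest and the other 4 genes are at their highest.

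*Mttp-IKO* pool 3 also held the lowest level of 17 of the 89 lincRNAs. No other pool was the highest for more than 19. The median coefficient of variation of the 89 was 14.4% over control pools and 29.9% over *Mttp-IKO* pools, and 75 (84.3%) varied more in *Mttp-IKO* pools. Over all genes tested the medians were 13.7% and 23.9%, and 70.6% varied more in *Mttp-IKO* pools. 9430037G07Rik, singled out after its values were seen, varied most over *Mttp-IKO* pools, at 0.806, 0.446 and 8.18 CPM in *Mttp-IKO* pools and 2.28, 3.63 and 3.31 CPM in control pools. Among the 31 lincRNAs with 2000 to 4000 nt of exon, 17 were highest in pool 3 and 6 lowest, and among the 23 longer ones 10 were highest and 2 lowest. Among the 21 with 1000 to 2000 nt, 5 were highest and 6 lowest, and among the 14 shorter ones 4 and 3. The part of length in this was not tested.

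Jpx and Ftx come from the X inactivation centre, where both are known as regulators of Xist, the RNA that coats the inactive X chromosome of females. Ftx was at 5.03, 4.38 and 5.37 CPM across controls and 6.87, 6.62 and 6.08 CPM across *Mttp-IKO* pools, without overlap (edgeR log2 fold change 0.40 with an SE of 0.189, adjusted p = 0.248). Jpx was at 4.29, 4.96 and 3.65 CPM and at 4.67, 8.37 and 7.05 CPM, which overlapped (edgeR log2 fold change 0.64 with an SE of 0.264, adjusted p = 0.201). In these pools of male mice, Xist itself had 27 reads in the third highest pool and was not among the 89.

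Carmn, known as a smooth muscle RNA beside the microRNAs miR-143 and miR-145, was at 4.71, 3.88 and 4.56 CPM across controls and 3.26, 3.36 and 2.64 CPM across *Mttp-IKO* pools (edgeR log2 fold change -0.50 with an SE of 0.224, adjusted p = 0.226). Pvt1, which lies next to Myc, was at 7.61, 6.4 and 8.09 CPM and at 5.25, 4.08 and 4.66 CPM (edgeR log2 fold change -0.66 with an SE of 0.202, adjusted p = 0.107). Dubr, studied in muscle cell differentiation, was at 4.44, 2.88 and 3.94 CPM and at 1.90, 2.33 and 2.10 CPM (edgeR log2 fold change -0.83 with an SE of 0.262, adjusted p = 0.115). In all 3 genes every *Mttp-IKO* pool lay below every control pool, and none passed the test. Dubr reached 100 reads only in control pools.

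1700020I14Rik, known as Oip5os1 or Cyrano and for promoting the decay of miR-7, was the steadiest of the abundant lincRNAs. It was at 54.9, 57.9 and 57.0 CPM across controls and 73.5, 75.4 and 74.9 CPM across *Mttp-IKO* pools. The means were 56.6 ± 1.52 and 74.6 ± 0.993 CPM (SD, n = 3 pools), 1.32-fold apart, and the pools did not overlap. The test across all genes did not call it (edgeR log2 fold change 0.40 with an SE of 0.130, adjusted p = 0.124), and its value was 0.22 under total count scaling.

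The 5 lincRNAs with the largest positive values were Gm42418, given above, and Gm11827, Gm26762, Gm26981 and Gm26719, which have no assigned role. Gm11827 was at 2.11, 5.13 and 3.5 CPM across controls and 5.22, 10.1 and 10.2 CPM across *Mttp-IKO* pools (edgeR log2 fold change 1.25 with an SE of 0.381, adjusted p = 0.107). Gm26981 was at 3.94, 5.21 and 3.69 CPM and at 5.67, 10.6 and 13.3 CPM (edgeR log2 fold change 1.20 with an SE of 0.323, adjusted p = 0.0800). In both the pools were apart by little, from the highest control to the lowest *Mttp-IKO* pool. Gm26762 was at 3.47, 3.96 and 2.94 CPM and at 4.13, 14.9 and 4.87 CPM, so that pool 2 carried the mean (log2 fold change 1.20, and 0.38 without that pool). Gm26719 was at 2.36, 3.8 and 2.28 CPM and at 5.09, 3.91 and 9.48 CPM (edgeR log2 fold change 1.13 with an SE of 0.378, adjusted p = 0.132), and 0.68 without *Mttp-IKO* pool 3.

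In all, 97 names of studied noncoding RNAs were looked up, of which 71 were in the table. Among these, 18 were in the 89, 20 were lincRNAs with fewer reads and 33 carried another biotype. The last group holds abundant RNAs such as Kcnq1ot1 (4762 reads in the third highest pool), Gas5 (1846), Tug1 (1050) and Mir22hg (741). Of the 71, 51 were tested, and 2, H19 and Rian, fell and 0 rose by edgeR, beside 3.09% lower and 0.920% higher of all genes.

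Of the 89 lincRNAs, 23 overlapped the span of a protein-coding gene, 18 of them with the nearest coding gene on the other strand and 5 on the same strand. Of the other 66, 25 lay within 5000 nt of a coding gene and 12 within 1000 nt, with a median distance of 11031 nt. The nearest coding gene was tested for 76 lincRNAs, and 52 of these pairs (68.4%) had fold changes of the same sign, with a Spearman correlation of 0.54 over the 76 pairs. For the 54 lincRNAs that overlap no coding gene, 38 pairs (70.4%) had the same sign (Spearman correlation 0.57). Among 11720 coding genes and their nearest coding genes, 53.9% of pairs had the same sign (Spearman correlation 0.13). Both members of a pair come from the same pools and share their depth. Where strand was not used, reads of overlapping genes can be dropped or counted for the wrong gene. The values of the pairs are therefore descriptions across genes.

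**Figure D5:**
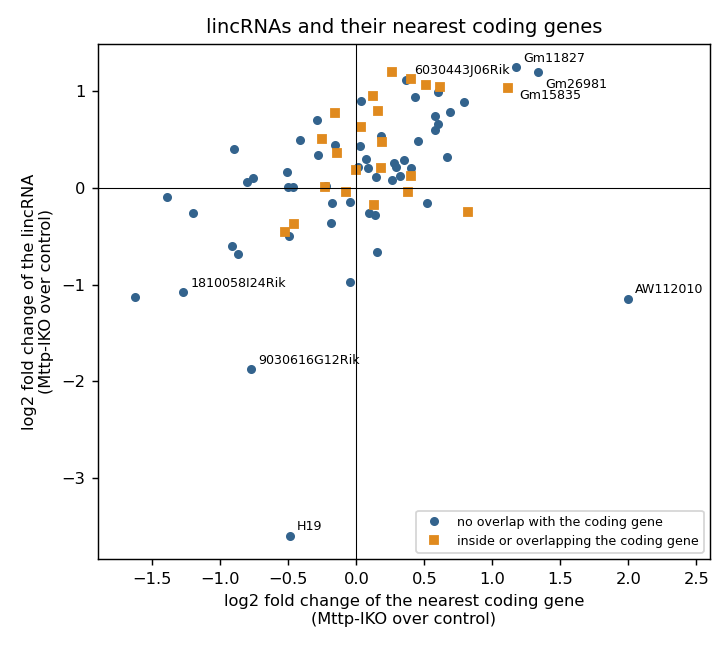
Each point is 1 of 76 lincRNAs, with the log2 fold change (*Mttp-IKO* over control) of its nearest coding gene on the x axis and its own on the y axis, and squares mark lincRNAs that overlap the coding gene. Most points, 52 of 76, lie in the lower left or upper right, and AW112010 lies in the lower right.

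The pairs given next, with Gm15835, 9030622O22Rik and Gm26608 among them, were picked after their values were seen. Among lower pairs, Meg3 at -1.13 lay beside Rtl1 at -1.63 (adjusted p = 0.190, edgeR), and 9030616G12Rik at -1.88 beside Mettl7b at -0.77 (adjusted p = 0.107, edgeR). Among higher pairs were Gm15835 with Cdip1, Gm11827 with Trp53inp1 and Gm26981 with Rab30. Cdip1, which encodes a p53 target that promotes cell death, rose (log2 fold change 1.12, adjusted p = 0.0383, edgeR), and Gm15835, which lies within it, had a value of 1.03 (adjusted p = 0.103). Trp53inp1, another p53 target, had an edgeR value of 1.18 (adjusted p = 0.146) beside 1.25 for Gm11827, and Rab30 a value of 1.34 (adjusted p = 0.407) beside 1.20 for Gm26981. 9030622O22Rik, next to the liver transcription factor gene Foxa2, had an edgeR value of 0.66 (adjusted p = 0.146) and Foxa2 one of 0.60 (adjusted p = 0.0988). Gm26608, 258 nt from Insig1, a regulator of cholesterol synthesis, had a value of 0.89 (adjusted p = 0.148) and Insig1 one of 0.79 (adjusted p = 0.138), all by edgeR. In the opposite sense, AW112010 had a value of -1.15 while its neighbour Ms4a8a rose by 2.0 on the log2 scale (adjusted p = 0.0373, edgeR). The nearest coding genes of the called lincRNAs, Mrpl23 for H19 at 34782 nt, Slc13a4 for 1810058I24Rik and Orc5 for 6030443J06Rik, had values of -0.49, -1.27 and 0.37 and were not called.

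Mttp in liver, which is not deleted there, was at 90.4, 186 and 175 CPM across controls and 145, 129 and 161 CPM across *Mttp-IKO* pools and so does not check the intestinal deletion. The livers expressed hepatocyte genes such as Alb in every pool. Control pool 2 held 523 CPM of 4 striated muscle markers, against 62.7 CPM or less in the other pools. H19 had 49.8, 25.7 and 26.6 CPM in control pools 1, 2 and 3, where these markers were at 62.7, 523 and 0.437 CPM. In *Mttp-IKO* pools 1, 2 and 3, H19 had 3.97, 1.10 and 3.36 CPM and the markers 0.548, 0.446 and 0.419 CPM. The part of muscle RNA in the H19 level was not tested.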

How the data were processed

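Total liver RNA of 6 pools was depleted of ribosomal RNA and sequenced. According to the methods and the submitters' processing notes, the authors aligned reads with STAR 2.5.1a to GRCm38 (Ensembl release 76) and used featureCounts 1.4.6-p5 to count, for each gene, reads that aligned to 1 place and fitted 1 gene, which gave the deposited raw counts. The deposited CPM values are those counts relative to all reads on genes, as made by the authors. The deposited RPKM values divide them by exon length in kilobases, as made by the authors. Both followed from the counts, and the tests used the counts alone.

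Genes were taken as lincRNA with at least 100 counts in at least 3 pools, after 276 repeated lines were dropped from the table of all pools, which held 40481 genes. Pools were grouped by the labels. Genes passing filterByExpr (minimum count 10, total 15) were tested with edgeR 4.0.16 in R 4.3.3 (TMM, quasi-likelihood test, 17287 genes, Benjamini-Hochberg threshold 0.05), and CPM and RPKM in the text were scaled by TMM. The method was tested on simulated data. DESeq2 1.42.0 and limma 3.58.1 served as alternatives, beside other scalings, filters and count limits, a length trend (loess span 0.3), a replicate block and fits without each pool. Depth was 25271585 to 36238734 reads, and 3 counts, the limit that a count of 0 allows, came to 0.0828 to 0.119 CPM, for counting error only. Genes named were every studied lincRNA of the lists, every called one, the 5 highest by RPKM and by CPM, the 5 with the largest change each way, and the nearest on either side of the count limit. Others are said to be named after their values were seen. The lincRNAs and lists were chosen with earlier results of these data known. Sequences and start sites came from RefSeq (GRCm38.p6). Figures were drawn with matplotlib 3.10.9.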

Additional observations from a re-analysis of the deposited data

How the results depend on the processing

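The 3 calls among 89 lincRNAs (694 over all genes) became 4 under total count scaling (0 higher, 4 lower, 1019 over all genes). DESeq2 gave 17 (12 higher, 5 lower, with 1995 over all genes). There were 5 without a filter on low counts (4 lower, with 990 over all genes). With the gene length trend removed there were 7 (4 higher, with 861 over all genes). A limit of 100 counts in all 6 pools left 50 lincRNAs, with 41 above 0 and 1 called (0 higher, 1 lower). A limit of 50 counts gave 148, with 107 above 0 and 5 called (4 lower), and 200 counts gave 44, with 32 above 0 and 0 called higher. Adding processed transcripts and antisense genes gave 246, with 174 above 0 and 8 called (4 higher, 4 lower). Leaving out each pool gave 0 to 9 calls, 0 to 2 higher and 0 to 7 lower. H19 and 1810058I24Rik were called under each of these alternatives that kept all 6 pools, except that H19 falls outside the limit of 100 counts in all 6 pools. The cause of these differences was not tested.

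Same-numbered pools correlated at 0.139, 0.112 and 0.00698 in their deviations from the group means, and differently numbered pools at -0.125 to 0.0208. These values do not settle whether the numbers pair the pools, and the main fit did not pair them. The replicate block gave 4 calls, H19, 1810058I24Rik, 9030616G12Rik and Gm11827, and 592 genes in all, and 6030443J06Rik, at 1.12 in both fits, was not called.

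Values near 0 changed sign. Gm10076 was -0.011 with upper quartile scaling, -0.17 with total counts, -0.33 with limma-voom, -0.0030 without the filter, -0.28 with the replicate block and -0.35 to 0.46 without each pool. Snhg20 was -0.0016, -0.16, -0.054 and -0.066 with upper quartile, total counts, limma-voom and the block, and -0.20 to 0.33 without each pool. Neat1 was -0.013 with total counts. The log2 fold change without each pool spanned -0.60 to 0.30 for Epb41l4aos, -0.56 to 0.10 for Snhg6, -0.17 to 0.43 for Lncpint and -0.0017 to 0.35 for Neat1. For genes under 10 CPM, which are 61 of the 89, depth limits the precision of each value.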
